A study of Mus musculus with 25 samples.

Results

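The transcripts described here are 40 mRNAs that the mouse oocyte makes and stores, and that the embryo is due to clear by the late two-cell stage. They were chosen by name from the 55375 genes of the count table, as oocyte-specific or maternally stored mRNAs, with earlier results of these data known. All 40 were found. Of these, 39 lie on autosomes and were tested with the other autosomal genes, 25794 in all, and *Bmp15* lies on the X chromosome and was fitted apart.

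RNA was sequenced from pools of 5 to 10 wild-type two-cell embryos collected 28 to 29 h after insemination or activation, in 25 libraries of 11 groups. IVF embryos (4 libraries) came from C57BL/6N (B6N) oocytes fertilized with DBA2 sperm. All SCNT embryos (21 libraries, 10 groups) were made from enucleated BDF1 oocytes that received the nucleus of a BDF1 female cumulus cell, the somatic cell that surrounds the oocyte, and were activated with strontium. The labels give 4 to 20 weeks as the age of the superovulated females, while the study's methods give a narrower adult range for the IVF parents and call the SCNT oocyte donors adult. The control SCNT embryos (2 libraries) were activated in cytochalasin B, an inhibitor of actin assembly that keeps the donor chromosomes in 1 cell, and received nothing more. SCNT-*Kdm3a* and SCNT-*Kdm4d* embryos (2 libraries each) were made in the same way and injected with 10 pL of mRNA at 1500 ng/µL for the H3K9 demethylase KDM3A or KDM4D. The remaining groups were activated in latrunculin A, another actin inhibitor. They were a latrunculin A control (2 libraries), embryos given 25 nM trichostatin A (TSA, an inhibitor of histone deacetylases) for 8 h (2 libraries), embryos given 1 µM of the G9a inhibitor A366 (2 libraries) or RK-701 (3 libraries) for 24 h, and embryos given TSA together with A366, RK-701 or UNC0638, a further G9a inhibitor (2 libraries each). G9a, with its partner GLP, places the first methyl groups on lysine 9 of histone H3. IVF and SCNT embryos differed in the strain of the oocyte as well as in how they were made, so for every difference between them the strain and the method cannot be told apart.

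A fully grown oocyte is transcriptionally silent and lives on the mRNAs it has stored. Meiotic maturation brings a first wave of decay, in which the deadenylase adaptor BTG4 brings the CCR4-NOT complex to mRNAs, and a later wave follows once the embryonic genome is transcribed. Many stored mRNAs have short poly(A) tails that are lengthened at maturation through the cytoplasmic polyadenylation element (CPE), a U-rich motif that lies near the poly(A) signal and is bound by CPEB1. An SCNT embryo has the stored mRNAs of its oocyte but the nucleus of a somatic cell, so a member's level at the two-cell stage reflects what the oocyte held, what has been cleared and what the new nucleus adds.

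The 3′ ends of a few members are shown because stored mRNAs are managed from there. They are the last bases of the GENCODE transcript up to and including the poly(A) signal (AATAAA in the members shown), in mm10 coordinates, written 5′ to 3′ on the strand of the gene. Capitals mark the poly(A) signal and, where present, a CPE, searched as TTTTAT or TTTTAAT on the mRNA strand. The first 4 have a CPE in this window and the last 4 do not.
*Gdf9*, chr11:53437858-53437887, plus strand: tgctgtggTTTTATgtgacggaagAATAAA
*Wee2*, chr6:40466764-40466793, plus strand: cataTTTTAATccagatcattgtaAATAAA
*Cnot7*, chr8:40493041-40493070, minus strand: aagtcttaaggtacaTTTTATatcAATAAA
*Omt2a*, chr9:78312018-78312047, minus strand: tggggttttaacggTTTTATaataAATAAA
*Zp3*, chr5:135988583-135988612, plus strand: cttcctaccttgtatcccttccgcAATAAA
*Ccnb1*, chr13:100778668-100778697, minus strand: gcaatatggagactttatgttgctAATAAA
*Zar1l*, chr5:150507068-150507097, minus strand: cctgtagtgtcttcttcagcttaaAATAAA
*Zfp36l2*, chr17:84183940-84183969, minus strand: tgtaaatgttttgtagtttcccccAATAAA
A CPE lay in the last 100 bases of 12 of the 40 members (30%), against 17.6% of 16206 tested protein-coding genes. A poly(A) signal (AATAAA or ATTAAA in the last 40 bases) was found in 35 members (87.5%), against 74.2% of those genes. The TTTTAAT form can overlap the AATAAA of the poly(A) signal. A match is a description of the sequence, and a window without one says only that these letters are not in it.

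The libraries held 6662727 to 21188688 reads on genes, with a median of 13994840. Levels are given as CPM, in which the reads of a gene are divided by all reads on genes, after TMM scaling of the library sizes. The injected mRNAs stood where the labels place them, with *Kdm3a* at 3116 to 3466 CPM in SCNT-*Kdm3a* embryos against 108.6 to 266.1 elsewhere, and *Kdm4d* at 12520 to 18520 CPM in SCNT-*Kdm4d* embryos against 0.717 to 5.08 elsewhere. No pair of libraries agreed within sampling noise, and the 2 latrunculin A control libraries differed most from each other. All 10 two-cell markers were detected in every group. Their summed level was 832 to 1090 CPM in IVF embryos, 734 to 844 in control SCNT embryos and 432 to 628 in latrunculin A controls, and between 281 and 1560 CPM in the treated groups. The 6 blastocyst markers summed to 7.89 to 11.4 CPM in IVF embryos, 24.9 to 25.7 in control SCNT embryos and 14.6 to 22.3 in latrunculin A controls, with *Cdx2* at 0 in both control groups and *Sox17* at 0 in the first. The 16 cumulus cell markers summed to 43.3 to 52.1 CPM in IVF embryos and to 57.5 to 78.2 CPM in untreated SCNT embryos. *Sparc* had 142 to 261 reads in the untreated SCNT libraries against 24 to 70 in the IVF libraries. *Fst* had 19, 125, 207 and 0 reads against at most 1. *Amhr2* overlapped, at 317 to 466 reads against 202 to 479. *Inha*, *Ptx3*, *Amh*, *Fshr* and *Inhba* were at 0 in IVF embryos, but had at most 11 reads in any untreated SCNT library. *Inha* and *Ptx3* were also at 0 in latrunculin A controls, and *Foxl2* was at 0 in control SCNT embryos but not in IVF embryos. Sperm markers summed to at most 4.18 CPM. The labels give no batch and do not say which embryos shared a day, so the p-values measure the spread between pools. No spike-in was used and the reverse transcription starts from the poly(A) tail, so less RNA of a member, more RNA of other genes and a shorter tail cannot be told apart.

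The 40 stored mRNAs together took fewer of the reads in most SCNT embryos than in IVF embryos. They held 1.90% ± 0.0542 (SD, n = 4) of the reads on genes in IVF embryos, 1.00% ± 0.192 (n = 2) in control SCNT embryos and 0.902% ± 0.218 (n = 2) in latrunculin A controls. The RK-701 embryos held 1.78% ± 0.245 (n = 3), and their range of 1.53 to 2.01% overlapped the IVF range of 1.83 to 1.97%. Every other SCNT library lay below both ranges. SCNT-*Kdm4d* embryos held 1.36% ± 0.073 and SCNT-*Kdm3a* embryos 1.06% ± 0.0241, while the other treated groups lay between 0.837% ± 0.0401 (A366) and 1.03% ± 0.16 (TSA+UNC0638).

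**Figure D1:**
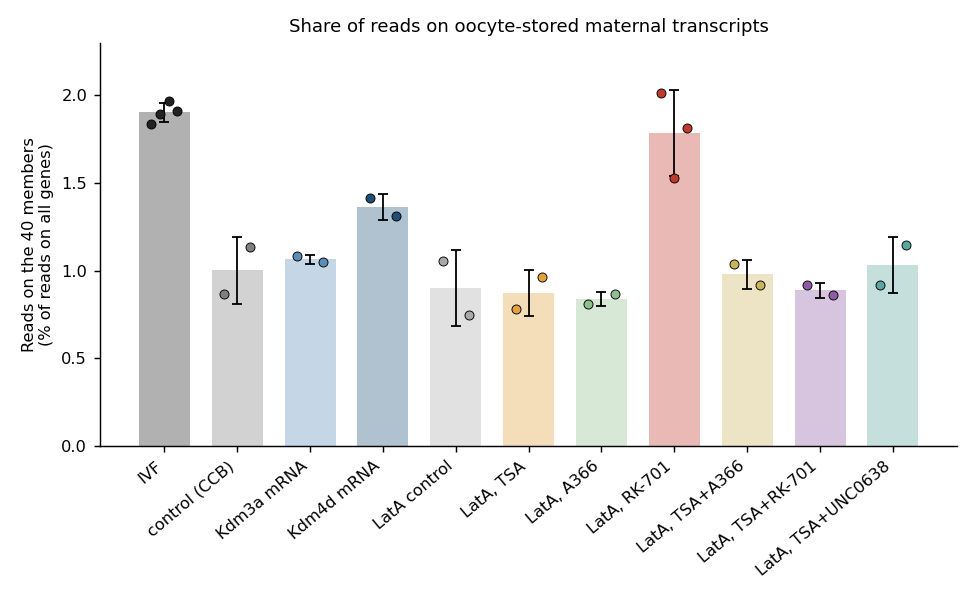
Percent of the reads on genes that fell on the 40 members, one point per library, with bars for the mean and error bars for the SD of each of the 11 groups. The 4 IVF libraries lie at 1.83 to 1.97%, the 3 RK-701 libraries at 1.53 to 2.01%, and every other library is lower.

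A few members carried most of these reads. *Omt2a*, an oocyte-specific transcript, held 17.5 to 35.9% of the members' reads, and *Omt2a*, *Ccnb1*, *Tcl1*, *Btg4* and *Bmp15* together held 51.9 to 75.8%. Without these 5 the share was 0.483% in IVF embryos, 0.335% in control SCNT embryos, 0.372% in latrunculin A controls and 0.547% in RK-701 embryos. It was 0.338% in SCNT-*Kdm4d* embryos, so the higher total of that group rested on the 5 members. In SCNT-*Kdm3a* embryos, whose total of 1.05 to 1.08% lay within the control SCNT range of 0.866 to 1.14%, it was 0.282%. The other treated groups lay at 0.312 to 0.368%. On the scale of TPM, which divides by transcript length, the mean level in IVF embryos ran from 12620 for *Omt2a*, 5602 for *Tcl1*, 2185 for *Ccnb1*, 2110 for *Oosp1* and 1968 for *Btg4* down to 1.19 for *Figla*. The members did not share 1 order of groups. The highest group mean lay in IVF embryos for 16 members, in RK-701 embryos for 13, in TSA embryos for 5, in A366 and in TSA+RK-701 embryos for 2 each, and in SCNT-*Kdm3a* (*Ccnb1*) and SCNT-*Kdm4d* (*Zp3*) embryos for 1 each. The share of all genes with their highest mean in each group was not counted. *Figla*, counted for TSA, had at most 11 reads in any library.

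**Figure D2:**
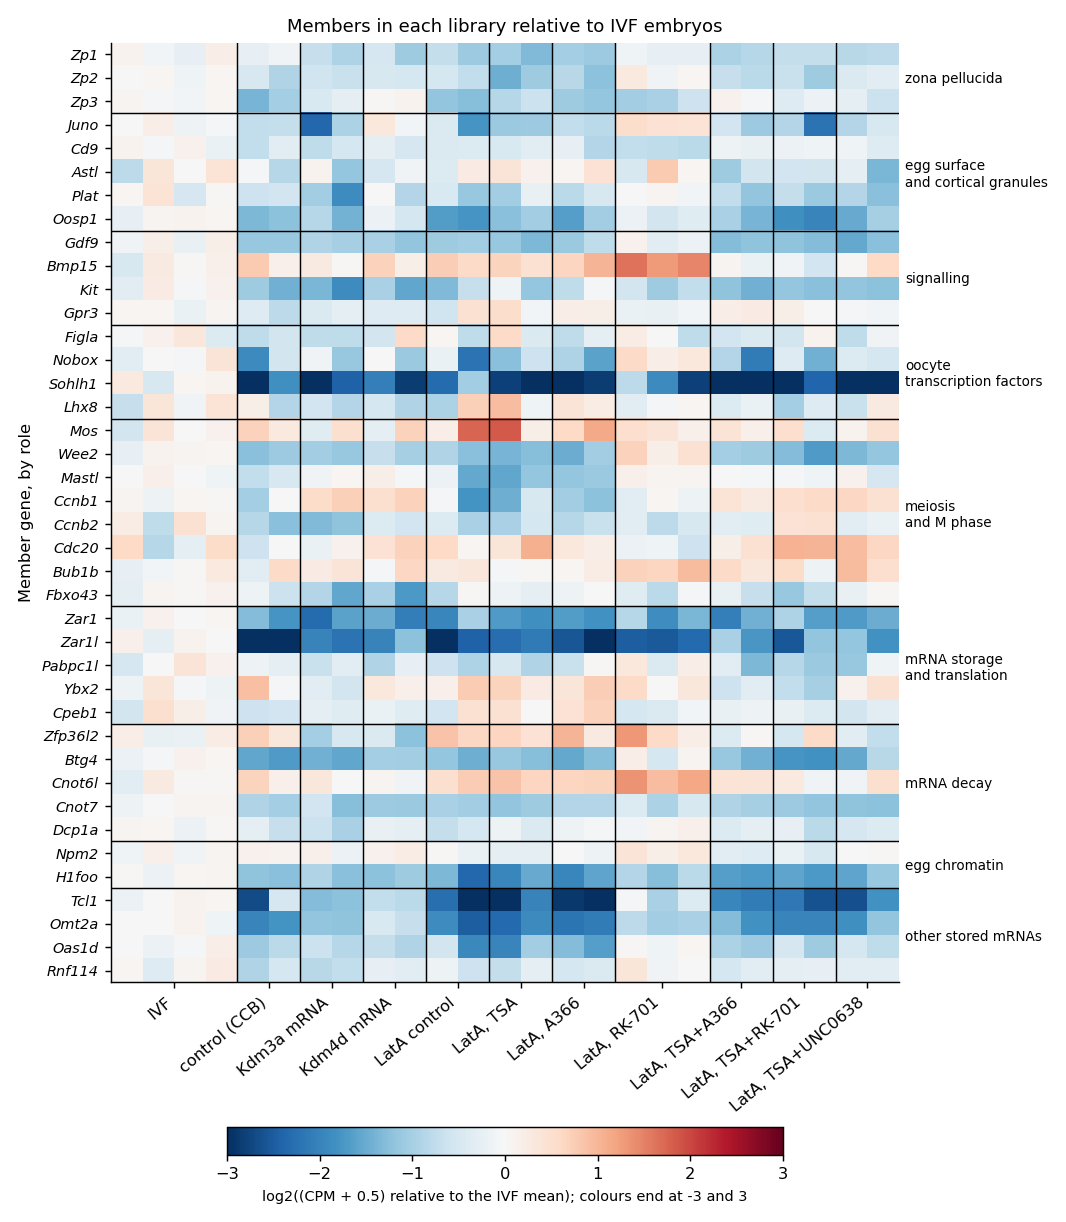
Level of each of the 40 members in the 25 libraries, as log2 CPM relative to the mean of the IVF libraries, with members ordered by role. *Zar1l*, *Omt2a* and *H1foo* are below IVF in all 21 SCNT libraries, while *Wee2* is above IVF in the 3 RK-701 libraries.

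The first comparison set the 4 untreated SCNT libraries, as the mean of both control groups, against the 4 IVF libraries. A gene was called where the adjusted p of edgeR's quasi-likelihood test was below 0.05 and the fold above 2. Of the 39 tested members, 13 (33.3%) were lower in untreated SCNT embryos and 0 were higher, while of all tested genes 9.24% were called lower and 9.59% higher. Since the list was chosen with earlier results of these data known, this difference in share is not an independent test. At an unadjusted p below 0.05, 25 members were lower and 3 higher, and DESeq2 called 14 lower and 0 higher. No share of all genes was counted at an unadjusted p or with DESeq2, here or below. None is given for fits with another scaling, filter or set of libraries. The median log2 fold change was -0.66 over the members and 0 over all tested genes, and 33 of 39 members had a fitted value below 0. In 19 members every untreated SCNT library was below every IVF library, against 14.4% of all genes, and in 1 member, *Zfp36l2*, every library was above, against 12.8%. Since a control library can decide such counts, each SCNT and IVF library was left out in turn, and 11 to 19 members were then called. With library sizes left unscaled, which moves the median of all genes to 0.217, 8 members were called lower and 0 higher, and *Gdf9*, *Kit*, *Wee2*, *Sohlh1* and *Oas1d* were not called, at -0.89, -0.90, -0.90, -2.51 and -0.80.

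The most abundant stored mRNAs were among those that fell. *Omt2a* had 6844, 6845, 7360.0 and 6261 CPM in the IVF libraries, 1724 and 1958 in the control SCNT libraries and 1857 and 1220.1 in the latrunculin A control libraries (log2 fold change -2.02 ± 0.15, adjusted p = 1.44e-10). *Tcl1*, which encodes a co-activator of AKT, had 3381, 3826, 4067 and 3993 CPM in IVF embryos, 593 and 2675 in control SCNT embryos and 796 and 279 in latrunculin A controls (log2 fold change -2.03 ± 0.33, adjusted p = 3.52e-05). The groups did not overlap for either gene, but the untreated *Tcl1* libraries were spread over a wide range, with the second control SCNT library well above the other 3. Without that library the log2 fold change was -2.77. *Oas1d*, an ovary-expressed member of the oligoadenylate synthetase family, had 183, 163, 181 and 212 CPM in IVF embryos against 86.1 and 104 and 126 and 47.5 in the 2 untreated groups (log2 fold change -1.02 ± 0.21, adjusted p = 0.00059). Its groups did not overlap, yet its fold lay close to the limit of 2, and it was no longer called without IVF library 4, control SCNT library 1 or latrunculin A control library 2, at log2 fold changes of -0.95, -0.95 and -0.75. *Rnf114*, a ubiquitin ligase needed for the maternal-to-zygotic transition, passed the p threshold at a smaller size (log2 fold change -0.56 ± 0.15, adjusted p = 0.00593).

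Among the mRNAs of the egg coat and the egg surface, *Zp3* and *Oosp1* fell. *Zp3*, the zona pellucida protein named as the sperm receptor, had 113, 101, 101 and 109.7 CPM in IVF embryos, 39.9 and 52 in control SCNT embryos and 46.1 and 43.2 in latrunculin A controls (log2 fold change -1.23 ± 0.14, adjusted p = 1.67e-07). *Oosp1*, a secreted protein of the oocyte, had 635, 797, 813 and 784 CPM in IVF embryos, 294 and 322 in control SCNT embryos and 234 and 220.0 in latrunculin A controls (log2 fold change -1.52 ± 0.16, adjusted p = 6.05e-08). The untreated libraries of both genes were all below the lowest IVF library. The other zona genes *Zp1* and *Zp2* passed the p threshold at log2 fold changes of -0.55 (adjusted p = 0.0208) and -0.66 (adjusted p = 0.00138), as did *Cd9*, the tetraspanin of gamete fusion, at -0.47, and *Plat*, tissue plasminogen activator, at -0.73. *Juno*, the egg receptor for sperm IZUMO1, was at -0.91 (adjusted p = 0.0584) with no overlap between the groups. *Astl*, the cortical granule protease ovastacin, was at -0.36 with a 95% interval of -1.19 to 0.48.

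Of the signalling members, the growth factor *Gdf9* and the receptor *Kit* fell. *Gdf9*, through which the oocyte acts on its cumulus cells, had 109.6, 133, 101 and 135 CPM in IVF embryos, 53.4 and 54.2 in control SCNT embryos and 56.5 and 57.8 in latrunculin A controls (log2 fold change -1.11 ± 0.14, adjusted p = 1.19e-06). *Kit*, the receptor of stem cell factor, had 80.4, 119, 95.2 and 108 CPM in IVF embryos, 47.2 and 36.3 in control SCNT embryos and 39.5 and 61.1 in latrunculin A controls (log2 fold change -1.14 ± 0.22, adjusted p = 0.000201). Neither gene's groups overlapped, and the untreated *Gdf9* libraries lay within a narrow range. *Gpr3*, the receptor that holds the oocyte in meiotic arrest, was at -0.28 with an interval of -0.65 to 0.09. *Bmp15*, the X-linked partner of *Gdf9*, went the other way, with 288, 482, 411 and 448 CPM in IVF embryos, 692 and 445 in control SCNT embryos and 672 and 593 in latrunculin A controls. In the fit with the sex chromosomes its log2 fold change was 0.56 ± 0.18 (adjusted p = 0.0171), short of 2-fold, and the groups overlapped. IVF embryos are a mix of the sexes while all SCNT embryos are female, which for an X-linked gene cannot be told apart from the way the embryo was made.

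The oocyte transcription factors were low and rested on few reads. *Sohlh1* had 29 to 58 reads in the IVF libraries and 0 to 16 in the untreated SCNT libraries, which gave 4.53, 2.42, 3.77 and 3.91 CPM in IVF embryos against 0 and 0.637 and 0.326 and 1.49 in the untreated groups (log2 fold change -2.73 ± 0.98, adjusted p = 0.0376). The groups did not overlap. The call was lost on leaving out 1 of 5 libraries, IVF library 1, 3 or 4, control SCNT library 1 or latrunculin A control library 1, with adjusted p of 0.0778, 0.0718, 0.075, 0.123 and 0.11. It grew to -5.35 without the second control SCNT and to -3.43 without the second latrunculin A control library. *Nobox* was at -1.04 (adjusted p = 0.0502). *Lhx8*, of these factors the one with the highest mean TPM over all 25 libraries (in IVF embryos *Nobox* was higher), had 8.74, 18.6, 13.4 and 19.3 CPM in IVF embryos against 16.3 and 7.57 and 7.22 and 23.7 in the untreated groups, with an interval of -0.85 to 0.52 on the log2 scale. *Figla* had at most 11 reads in any library, so no fold is given.

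Of the 8 members that act in meiosis and M phase, *Wee2* was the 1 called. *Wee2*, the oocyte kinase that restrains CDK1, had 639.7, 821, 808 and 798 CPM in IVF embryos, 317 and 359.9 in control SCNT embryos and 411 and 319 in latrunculin A controls (log2 fold change -1.13 ± 0.14, adjusted p = 7.22e-07). Every untreated library was below every IVF library. *Mastl*, the Greatwall kinase, passed the p threshold at -0.66 (adjusted p = 0.0088), and *Ccnb2*, a B-type cyclin, at -0.92 (adjusted p = 0.00117). *Ccnb1*, the main mitotic cyclin, had 2122, 1794, 2082 and 2040.0 CPM in IVF embryos, 984 and 2014 in control SCNT embryos and 1924 and 582 in latrunculin A controls (adjusted p = 0.0836). Within each control group 1 library reached the IVF range and the other was far below it, so its replicates differed more than the groups did. *Mos*, the kinase of metaphase II arrest, *Cdc20* and *Fbxo43* (EMI2), an activator and an inhibitor of the anaphase-promoting complex, and *Bub1b*, a spindle checkpoint kinase, were not called, with log2 fold changes of 0.88, -0.08, -0.37 and 0.23.

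Of the proteins that store and translate mRNA, both ZAR genes fell. *Zar1l* had the largest fall of all members with more than 30 reads in every library, from 41.7, 31.1, 40 and 37.4 CPM in IVF embryos to 3.1 and 3.74 in control SCNT embryos and 4.18 and 6.52 in latrunculin A controls (log2 fold change -3.13 ± 0.30, adjusted p = 9.06e-09), an 8.78-fold fall. *Zar1*, which like *Zar1l* encodes an RNA-binding protein that protects stored mRNAs, had 9.06, 11.4, 10.6 and 11 CPM in IVF embryos against 3.97 and 2.71 and 2.34 and 5.12 in the untreated groups (log2 fold change -1.59 ± 0.35, adjusted p = 0.000907). Neither gene's groups overlapped. *Ybx2* (MSY2), the main packaging protein of stored mRNA, had 26.4, 37.7, 27.9 and 26.2 CPM in IVF embryos against 55.3 and 28.4 and 32.3 and 49.8 (log2 fold change 0.48 ± 0.21, adjusted p = 0.0819), with overlap. *Cpeb1* and the embryonic poly(A)-binding protein *Pabpc1l* were at -0.35 and -0.57, with intervals of -0.81 to 0.11 and -1.27 to 0.13.

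The decay genes among the members split. *Btg4* had 1652, 1813, 2037 and 1930.5 CPM in IVF embryos, 631 and 567 in control SCNT embryos and 824 and 675 in latrunculin A controls (log2 fold change -1.47 ± 0.15, adjusted p = 3.64e-08), with no overlap. *Cnot7*, a catalytic deadenylase of CCR4-NOT, had 863, 946, 1004 and 1006 CPM in IVF embryos against 512 and 470.4 and 481 and 464 (log2 fold change -0.99 ± 0.13, adjusted p = 2.49e-06), just under 2-fold and again with no overlap. *Cnot6l*, the other catalytic type of the same complex, was higher instead, with 260.4, 395, 339 and 340.4 CPM in IVF embryos against 526 and 369.7 and 462 and 556 (log2 fold change 0.51 ± 0.15, adjusted p = 0.0127), under 2-fold and with overlap. *Zfp36l2*, which binds AU-rich elements, was above every IVF library in all 4 untreated libraries, with 32, 23.6, 24.3 and 32.7 CPM against 46.2 and 35.6 and 51.1 and 42.8 (log2 fold change 0.64 ± 0.26, adjusted p = 0.0614). *Dcp1a*, a decapping factor, passed the p threshold at -0.56. Of the chromatin genes, *H1foo*, the oocyte linker histone, had 61, 52.2, 62.1 and 62.9 CPM in IVF embryos against 25.5 and 24.5 and 23 and 11.2 (log2 fold change -1.52 ± 0.20, adjusted p = 1.64e-06), and the groups did not overlap. *Npm2*, the nucleoplasmin that loosens sperm chromatin, had 51.5, 63.1, 52.8 and 59.8 CPM in IVF embryos against 62.1 and 60.5 and 57.9 and 49, with an interval of -0.27 to 0.29 on the log2 scale.

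The 13 members called lower did not share 1 feature of the 3′ end. A CPE lay in the last 100 bases of 6 of them (*Gdf9*, *Wee2*, *Btg4*, *H1foo*, *Tcl1* and *Omt2a*) and of 6 of the 26 members tested and not called. The cumulus markers come from the type of cell that gave the SCNT nuclei. Of 12 tested, 3 were higher in untreated SCNT embryos (9.59% of all genes) and 0 lower (9.24%). Of the 10 two-cell markers 3 were lower and 0 higher in the same comparison, and of 4 tested blastocyst markers 1 was higher and 0 were lower. These lists are short, and calls of so few genes do not describe a list as a whole. The part of these markers, or of cumulus RNA, in the members' difference was not tested. Some values carry a limit of counting, since only reads aligned to 1 place were kept. Of the 50-base words of the mRNA, 42.1% of *Ccnb1* were shared with 6 other genes, above all *Ccnb1-ps*, 29.5% of *Omt2a* with its copy *Omt2b*, 22.8% of *Zar1* with *Gm15847* and *Gm42668* and 11.4% of *Cdc20* with *Gm7856* and AC132235.3, so the levels of these 4 are uncertain.

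The wider decay list held 41 genes that are not members, of deadenylation and its recruiters, decapping, exonucleolytic decay and terminal uridylation, with *Yap1* and *Tead4*, transcription regulators tied to the later wave of decay. In untreated SCNT against IVF embryos 4 were called lower and 2 higher, shares near the 9.24% and below the 9.59% of all genes, so these counts do not set the list apart. Its median log2 fold change was -0.02. The lower genes were *Tob1* (-1.84 ± 0.22), *Tob2* (-1.19 ± 0.13) and *Btg1* (-1.31 ± 0.16), adaptors of CCR4-NOT, and the exonuclease *Dis3l* (-1.22 ± 0.18). The higher genes were the AU-rich element binder *Zfp36l1* (1.82 ± 0.45) and *Edc3* (2.37 ± 0.37), an enhancer of decapping.

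Each of the 10 SCNT groups was then set against the same 4 IVF libraries, so these comparisons share their reference and are not independent. The number of members called lower was 12 in control SCNT embryos (6.87% of all genes), 13 in latrunculin A controls (6.51%), 15 in TSA (7.17%) and 15 in A366 embryos (7.16%). It was 14 in SCNT-*Kdm3a* (6.25%), 8 in SCNT-*Kdm4d* (4.49%), and 13 in each of the TSA+A366 (5.43%), TSA+RK-701 (5.99%) and TSA+UNC0638 groups (4.35%). In these 9 groups 0 members were called higher by edgeR, while 0 to 3 were higher at an unadjusted p below 0.05. In the order given, 8.12%, 8.8%, 7.74%, 8.03%, 6.56%, 4.8%, 5.48%, 6.22% and 5.49% of all genes were called higher. Leaving out 1 library moved 4 of these counts by over 1.5 times. The count was 9 without the second SCNT-*Kdm3a* library, 4 without the second SCNT-*Kdm4d* library, 8 without the second TSA+A366 library and 7 without the first TSA+UNC0638 library. With unscaled library sizes the latrunculin A control had 7 members lower and 1 higher. RK-701 embryos had 2 members lower (5.2% of all genes) and 1 higher (6.62%), and 5 called without their library 1 or their library 3.

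*Zar1* and *Zar1l* were lower than IVF in 10 of 10 groups. *Zar1l* stood at -3.45 in control SCNT embryos on the log2 scale and at -2.82 in latrunculin A controls. The treated groups ran from -2.95 in A366 embryos to -1.34 in TSA+A366 embryos, and the other values were -2.53 with RK-701, -2.27 with TSA, -2.18 with *Kdm3a*, -1.76 with TSA+RK-701, -1.61 with *Kdm4d* and -1.50 with TSA+UNC0638. *Btg4* and *H1foo* were lower in 9 groups, *Omt2a*, *Oosp1*, *Tcl1* and *Wee2* in 8, *Gdf9* and *Kit* in 7 and *Sohlh1* in 6. In 6 members, *Sohlh1*, *Zar1*, *Zar1l*, *Cnot7*, *H1foo* and *Omt2a*, all 21 SCNT libraries were below all 4 IVF libraries, against 3.55% of all genes, and in 0 members were all above, against 2.84%. Members that no group called were *Astl*, *Bub1b*, *Cd9*, *Cdc20*, *Cpeb1*, *Dcp1a*, *Figla*, *Gpr3*, *Lhx8*, *Mos*, *Nobox*, *Npm2*, *Pabpc1l*, *Rnf114*, *Ybx2* and *Zfp36l2*.

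**Figure D3:**
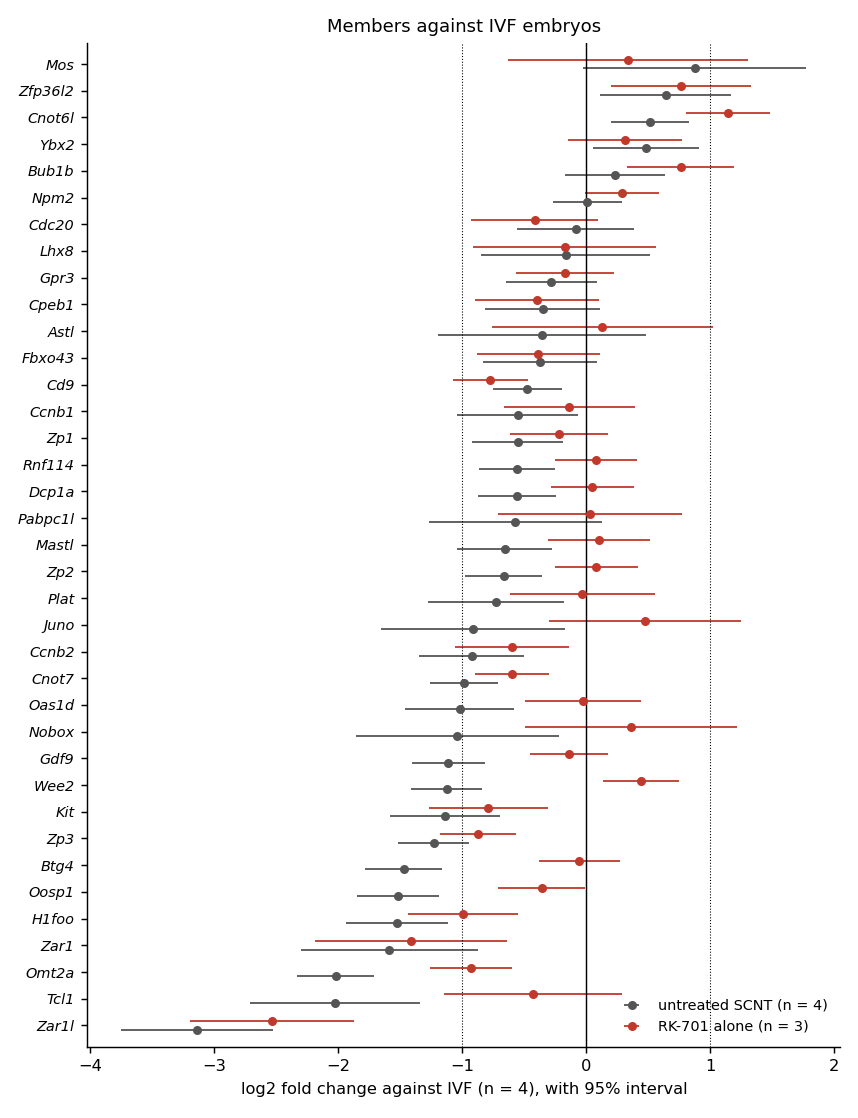
Log2 fold change of the tested members against the same 4 IVF libraries, with its 95% interval, in the 4 untreated SCNT libraries (grey) and the 3 RK-701 libraries (red). *Figla* and *Sohlh1* are not drawn, and the dotted lines mark 2-fold. *Zar1l* lies lowest in both, at -3.13 and -2.53, while *Wee2* lies at -1.13 in untreated and at 0.45 in RK-701 embryos.

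The latrunculin A control differed from the cytochalasin B control by 0 called members in edgeR and in DESeq2, against 0.0116% of all genes, and 3 members had an unadjusted p below 0.05. *Tcl1* was at -1.60 ± 0.47 (adjusted p = 0.372), a gap set by the second control SCNT library. With the first latrunculin A control library left out 3 members were called, and with the first control SCNT library left out 1 was.

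In embryos given RK-701 alone, 6 stored mRNAs were called higher than in the latrunculin A control. The groups are 3 RK-701 and 2 control libraries, and of all tested genes 1.73% were called higher and 1.62% lower. Of the 39 members, 6 (15.4%) were higher and 0 lower, with 20 higher and 1 lower at an unadjusted p below 0.05 and 7 higher and 0 lower in DESeq2. In 22 members all RK-701 libraries were above both controls, against 15.9% of genes, and in 2, *Cd9* and *Cdc20*, all were below, against 16.2%.

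*Wee2* had 1226, 858 and 1048 CPM with RK-701 against 411 and 319 in the latrunculin A control (log2 fold change 1.52 ± 0.19, adjusted p = 6.93e-05). *Oosp1* had 672, 511 and 588 CPM with RK-701 against 234 and 220.0 in the control (log2 fold change 1.38 ± 0.21, adjusted p = 0.000414), and *Btg4* had 2119.9, 1283 and 1966 CPM against 824 and 675 (log2 fold change 1.26 ± 0.20, adjusted p = 0.000524). All RK-701 libraries of these genes were above both controls, and those of *Wee2* were also above all 4 IVF libraries. *Omt2a* had 3978, 3306 and 3471 CPM against 1857 and 1220.1 (log2 fold change 1.22 ± 0.20, adjusted p = 0.000542), still below every IVF library. *Tcl1* had 3736, 1933 and 2856 CPM against 796 and 279 (log2 fold change 2.40 ± 0.46, adjusted p = 0.00241), and *Oas1d* had 187, 167 and 190.5 CPM against 126 and 47.5 (log2 fold change 1.06 ± 0.28, adjusted p = 0.0239). In both of these genes the 2 control libraries were far apart. *Gdf9* (log2 fold change 0.93 ± 0.19, adjusted p = 0.0038), *Zp2* (log2 fold change 0.72 ± 0.20, adjusted p = 0.0283) and *Dcp1a* (log2 fold change 0.67 ± 0.20, adjusted p = 0.0463) passed the p threshold at under 2-fold.

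**Figure D4:**
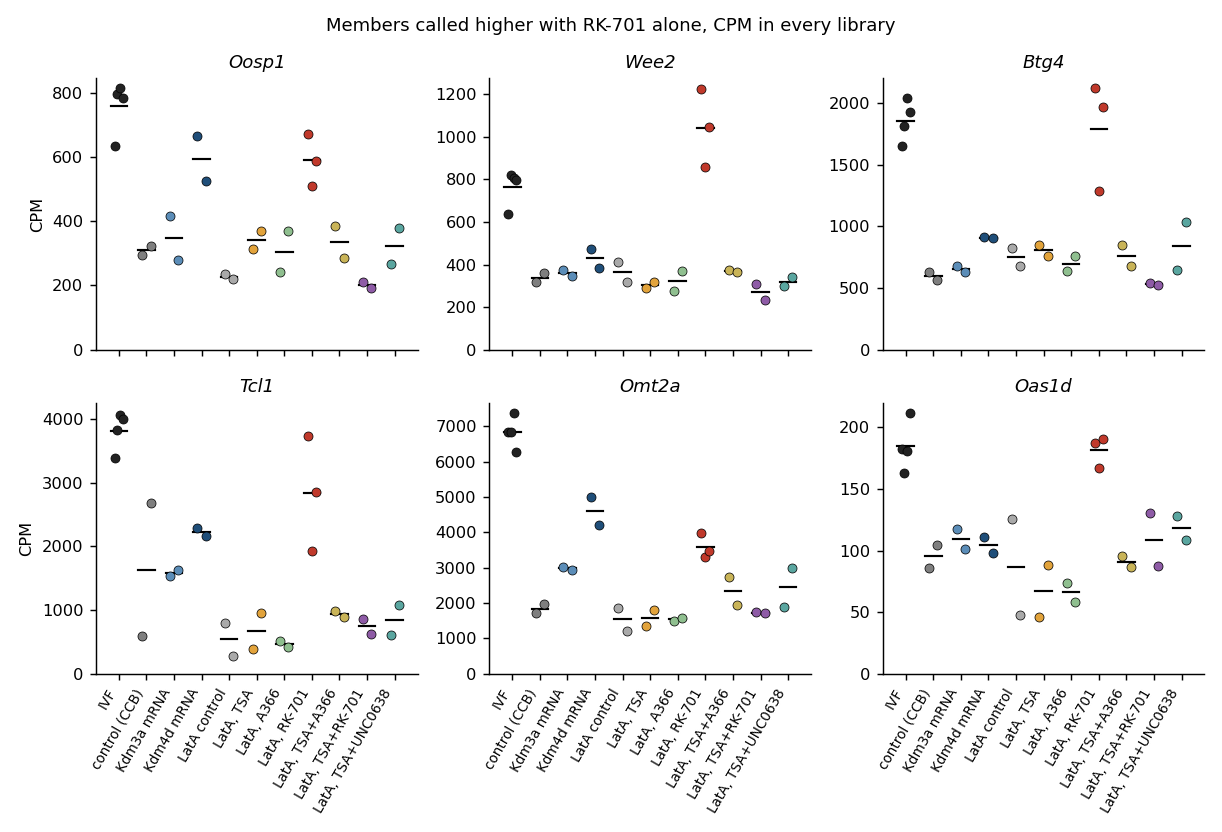
CPM in each of the 25 libraries, on linear axes, of the 6 members called higher with RK-701 than in the latrunculin A control, with a line at the mean of each of the 11 groups. The RK-701 libraries of *Wee2* (858 to 1226 CPM) lie above all IVF libraries, while those of *Omt2a* (3306 to 3978 CPM) lie above the controls and below IVF.

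The size of the count depended on the control pair. Without the first latrunculin A control library 11 members were called, with *Tcl1* at 3.39 and *Oas1d* at 1.98, and without the second 3 were, *Oosp1*, *Wee2* and *Btg4*. Without that second library *Tcl1* was at 1.83 (adjusted p = 0.101), *Omt2a* at 0.94 (adjusted p = 0.0448) and *Oas1d* at 0.52 (adjusted p = 0.445). Against both untreated controls *Oas1d* was at 0.998, just under 2-fold, and with the compared libraries fitted alone *Oas1d* had an adjusted p of 0.141. *Oas1d* was also lost without RK-701 library 1 (adjusted p = 0.0645) or library 3 (adjusted p = 0.0797).

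Against all 18 other SCNT libraries, 9 members had every RK-701 library on top (2.87% of all genes) and 0 had every RK-701 library at the bottom (2.64%). These were *Zp2*, *Juno*, *Gdf9*, *Nobox*, *Wee2*, *Btg4*, *Cnot6l*, *Oas1d* and *Rnf114*. Cumulus markers summed to 49.7 to 55.1 CPM in RK-701 embryos and to 61.4 to 71.5 CPM in their controls, and two-cell markers to 684 to 902 CPM against 432 to 628. The part of either list in the result was not tested. Against IVF embryos, *Zar1* (log2 fold change -1.41 ± 0.38, adjusted p = 0.0079) and *Zar1l* (log2 fold change -2.53 ± 0.32, adjusted p = 1.73e-06) were lower with RK-701. *Zar1l* had 6.34, 6.1 and 6.97 CPM with RK-701 and 4.18 and 6.52 in the latrunculin A control. *Cnot6l* was higher than in IVF embryos, with 847, 626 and 741 CPM (log2 fold change 1.14 ± 0.17, adjusted p = 1.13e-05). *Bmp15* was higher too in the fit with sex chromosomes, with 1245, 970.3 and 1113 CPM (log2 fold change 1.45 ± 0.19, adjusted p = 2.65e-06), and against the latrunculin A control it was at 0.81 ± 0.23 (adjusted p = 0.0367).

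TSA alone and A366 alone gave 0 called members each in edgeR and in DESeq2 against the same latrunculin A controls, where 0.318% and 0.12% of all genes were called. At an unadjusted p below 0.05 there were 5 members with TSA and 3 with A366. The lowest adjusted p was 0.192 for *Zp2* with TSA and 0.34 for *Sohlh1* with A366. These designs do not show that the members were equal. The interval of *Omt2a* was -0.38 to 0.46 with TSA and -0.42 to 0.43 with A366 on the log2 scale, and that of *Tcl1* was -0.62 to 1.25 and -1.13 to 0.74. Without the second latrunculin A control library 1 member was called with TSA and 2 with A366.

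The inhibitors were compared with each other at the matched dose of 1 µM for 24 h, in 4 pairs with p-values adjusted over all genes within a pair. RK-701 against A366 gave 8 members higher and 0 lower, where 4.1% of all genes were higher and 3.99% lower. *Wee2* had 1226, 858 and 1048 CPM with RK-701 and 274 and 369 with A366 (log2 fold change 1.70 ± 0.19, adjusted p = 1.6e-06). *Omt2a* had 3978, 3306 and 3471 CPM against 1503 and 1583 (log2 fold change 1.22 ± 0.20, adjusted p = 0.000121), and *Tcl1* had 3736, 1933 and 2856 CPM against 515 and 422 (log2 fold change 2.60 ± 0.46, adjusted p = 0.000349). The libraries did not overlap in any of the 3 genes, which adds little for genes already called, and the share of all genes was not counted. The other members were *Btg4* at 1.36 (adjusted p = 4.48e-05), *Oas1d* at 1.46 (0.000993), *Mastl* at 1.25 (0.00114), *Zp2* at 1.11 (0.000417) and *Nobox* at 1.68 (0.037).

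The other 3 pairs compared inhibitors given together with TSA. TSA+RK-701 against TSA+A366 gave 0 members in edgeR, as it gave 0% of all genes, with 6 members at an unadjusted p below 0.05. *Omt2a* was at -0.44 (interval -0.87 to -0.02), *Wee2* at -0.45 (interval -0.86 to -0.05) and *Oosp1* at -0.73 (interval -1.19 to -0.27), with adjusted p of 1. TSA+UNC0638 against TSA+RK-701 gave 1 member, *Ybx2*, with 32 and 40.3 CPM against 17.3 and 14.4 (log2 fold change 1.19 ± 0.30, adjusted p = 0.0434), where 0.671% of all genes were higher and 0.275% lower. TSA+UNC0638 against TSA+A366 gave 0 members, where 0.857% of all genes were called, with 2 at an unadjusted p below 0.05 and *Omt2a* at 0.06 (interval -0.36 to 0.48).

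When TSA was given together with RK-701, *Wee2*, *Btg4* and *Oosp1* were not high. *Wee2* had 308 and 234 CPM with TSA+RK-701, 291 and 317 with TSA alone, 1226, 858 and 1048 with RK-701 alone and 411 and 319 in the control. *Btg4* had 542 and 525 CPM with both agents, 846 and 763 with TSA and 2119.9, 1283 and 1966 with RK-701. *Oosp1* had 212 and 192 CPM with both agents, 313 and 368 with TSA and 672, 511 and 588 with RK-701. In each gene both libraries of the combination were below all RK-701 libraries and below both latrunculin A control libraries. The share of all genes with this order was not counted. The interaction term, which tests whether the combination differs from the sum of its single effects on the log2 scale, was called lower for 5 members (0.752% of all genes) and higher for 0 (1.38%). These were *Oosp1* at -2.13 ± 0.31 (adjusted p = 0.00136), *Btg4* at -1.85 ± 0.29 (0.00215), *Wee2* at -1.68 ± 0.27 (0.00259), *Cnot6l* at -1.18 ± 0.30 (0.0322) and *Omt2a* at -1.09 ± 0.28 (0.0347). The term uses the same RK-701 and latrunculin A control libraries as the comparison of these groups above. For *Oosp1*, *Btg4*, *Wee2* and *Omt2a*, already called higher there, it is not an independent result. *Bmp15* was at -1.69 ± 0.34 (adjusted p = 0.00946) in the fit with sex chromosomes. For TSA and A366 the term was called for 1 member, *Mastl*, at 1.76 ± 0.38 (adjusted p = 0.0176), where 1.28% of all genes were higher and 0.554% lower. *Mastl* had 206 and 197 CPM with both agents, 69.1 and 91.9 with TSA, 91.8 and 94.1 with A366 and 182 and 70.4 in the control. Over both terms, 6 members became 14 without the second latrunculin A control library, and 3 without the first TSA or the second TSA+RK-701 library.

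The TSA combinations were also set against the latrunculin A control, whose 2 libraries they share with the comparisons above. TSA+A366 gave 2 members higher and 0 lower (3.05% and 2.94% of all genes), *Zp3* with 115 and 104 CPM against 46.1 and 43.2 (log2 fold change 1.29 ± 0.20, adjusted p = 0.000165) and *Zar1l* with 18.8 and 10.7 CPM against 4.18 and 6.52 (log2 fold change 1.48 ± 0.40, adjusted p = 0.0188). TSA+RK-701 gave 2 members higher (3.65% of all genes) and 1 lower (2.52%). *Ccnb1* had 2859.8 and 2981 CPM against 1924 and 582 (log2 fold change 1.22 ± 0.34, adjusted p = 0.0216), *Ccnb2* had 59.6 and 59.8 CPM against 32.9 and 22 (log2 fold change 1.12 ± 0.29, adjusted p = 0.0138) and *Ybx2* had 17.3 and 14.4 CPM against 32.3 and 49.8 (log2 fold change -1.37 ± 0.30, adjusted p = 0.00378). TSA+UNC0638 gave 2 members higher (3.64%) and 1 lower (2.54%). *Ccnb1* had 3073 and 2738 CPM (log2 fold change 1.21 ± 0.34, adjusted p = 0.0235), *Zar1l* had 16.3 and 10.3 CPM (log2 fold change 1.32 ± 0.40, adjusted p = 0.036) and *Zfp36l2* had 22.1 and 16.4 CPM against 51.1 and 42.8 (log2 fold change -1.29 ± 0.37, adjusted p = 0.026). The treated and control libraries of these genes did not overlap. That adds little for genes already called in groups of 2 libraries, and the share of all genes was not counted. With TSA+UNC0638 all 10 two-cell markers were higher than in the control, at a sum of 1550 CPM, and their part in its calls was not tested. *Zp3* was also past the p threshold with TSA+RK-701, at 80.7 and 93.6 CPM (log2 fold change 0.96 ± 0.20, adjusted p = 0.00205), and with TSA+UNC0638, at 85.9 and 67.3 CPM (log2 fold change 0.78 ± 0.20, adjusted p = 0.0112).

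These counts of 0 to 2 of 39 members in each direction are near the share of all genes called, and they rest on the control pair. The cyclin calls are the clearest case, since *Ccnb1* was at 1924 CPM in 1 control library and at 582 in the other. Without the second control library *Ccnb1* was at 0.57 (adjusted p = 0.314) with TSA+RK-701 and at 0.56 (adjusted p = 0.36) with TSA+UNC0638, and without the first it was at 2.35 and 2.33. Without that library 0 members were called for either combination, and without the first 6 were called with TSA+A366, 6 with TSA+RK-701 and 7 with TSA+UNC0638. Leaving out a treated library gave 1 call with TSA+A366 (its first), 0 with TSA+RK-701 (its second) and 0 or 1 with TSA+UNC0638 (its first or second). With the compared libraries fitted alone 1 member was called with TSA+A366, 1 with TSA+RK-701 and 0 with TSA+UNC0638. With library sizes left unscaled, which moves the median of all genes to between -0.404 and -0.352, the calls were 1 higher and 3 lower with TSA+A366, 0 higher and 1 lower with TSA+RK-701 and 0 higher and 2 lower with TSA+UNC0638.

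**Figure D5:**
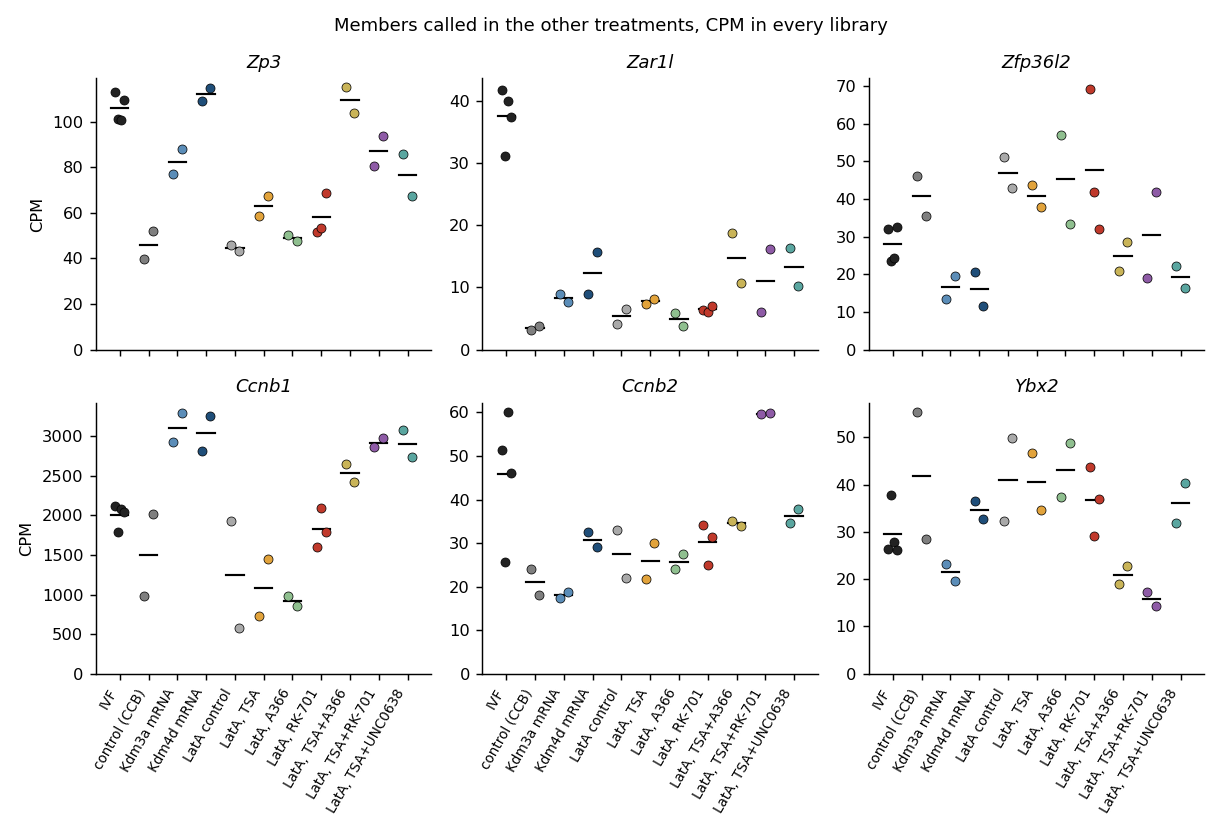
CPM in each of the 25 libraries, on linear axes, of 6 members called in treatments other than RK-701 alone, with a line at the mean of each of the 11 groups. In both control groups 1 of the 2 *Ccnb1* libraries is below 1000 CPM, and *Zp3* is highest in IVF, SCNT-*Kdm4d* and TSA+A366 embryos.

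Few members were called with either injected demethylase against the control SCNT embryos, which both comparisons share. Two-cell markers summed to 1300 to 1560 CPM with *Kdm3a* and to 623 to 754 with *Kdm4d* against 734 to 844 in that control, and their part was not tested. With *Kdm4d*, 3 members were higher (2.1% of all genes) and 1 lower (1.04%). *Zp3* had 109 and 115 CPM against 39.9 and 52 in the control (log2 fold change 1.29 ± 0.20, adjusted p = 0.000407), which is within or above the IVF range. *Omt2a* had 4998 and 4193 CPM against 1724 and 1958 (log2 fold change 1.32 ± 0.21, adjusted p = 0.000514), above both controls and below every IVF library. *Zar1l* had 8.94 and 15.6 CPM against 3.1 and 3.74 (log2 fold change 1.84 ± 0.42, adjusted p = 0.00988), and *Zfp36l2* had 20.6 and 11.6 CPM against 46.2 and 35.6 (log2 fold change -1.35 ± 0.37, adjusted p = 0.0319). Neither gene's libraries overlapped, which adds little for genes already called, and the share of all genes was not counted. *Oosp1* passed the p threshold at 0.95 (adjusted p = 0.0136). Without the first control SCNT library 2 members were called, *Zp3* and *Omt2a*, with *Zar1l* at an adjusted p of 0.162 and *Zfp36l2* at 0.245; without the second SCNT-*Kdm4d* library these were at 0.17 and 0.34.

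With *Kdm3a*, 1 member was called, *Zfp36l2*, with 13.4 and 19.7 CPM (log2 fold change -1.31 ± 0.37, adjusted p = 0.0331), where 1.78% of all genes were lower and 2.39% higher. *Zp3* with 76.9 and 88 CPM (log2 fold change 0.84 ± 0.20, adjusted p = 0.00934) and *Omt2a* with 3015 and 2946 CPM (log2 fold change 0.70 ± 0.21, adjusted p = 0.0427) passed the p threshold at under 2-fold. Without the first control SCNT library, the first or the second SCNT-*Kdm3a* library 0 members were called, with *Zfp36l2* at an adjusted p of 0.217, 0.234 and 0.0719, and without the second control SCNT library 4 were. *Ccnb1* had 2922 and 3289 CPM with *Kdm3a* and 2817 and 3258 with *Kdm4d*, against 984 and 2014 in the controls (adjusted p = 0.0651 and 0.0801). *Kdm4d* against *Kdm3a* gave 0 members in edgeR (0.326% of all genes), 11 at an unadjusted p below 0.05, all higher with *Kdm4d*, and 1 in DESeq2. The share of all genes at that unadjusted limit was not counted, so the 11 stands without a baseline. *Omt2a* was at 0.62 with an interval of 0.20 to 1.05, and 1 member was called without the second SCNT-*Kdm3a* library.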

How the data were processed

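The authors deposited 1 table of raw counts, read pairs per gene and library for 55375 genes and 1755056 copies of transposable elements. Per the study's methods and the labels, cDNA was made with a poly(A)-primed SMART-Seq kit and sequenced in pairs, reads were trimmed with Trimmomatic and aligned to mm10 with STAR, and uniquely aligned pairs on exons were counted with featureCounts without regard to strand. These deposited counts were not normalized. Columns of other samples numbered 0, and the counts of transposable elements were not used.

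Counts were analysed in R 4.3.3 with edgeR 4.0.16. Library sizes were scaled by TMM (factors 0.883 to 1.16), and CPM are relative to the scaled sizes. Genes on autosomes that averaged 1 read or more per library were fitted over all 25 libraries with a term per group, tested by the quasi-likelihood F test and adjusted by Benjamini-Hochberg over the 25794 genes. A gene was called at adjusted p below 0.05 and fold above 2. Errors of fold changes are standard errors, and intervals are 95%. Sequences came from GENCODE M21, of the build of the counts, the transcript being the principal one. The scripts were tested on simulated counts. Groups follow the labels.

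The members, their roles and the marker and decay lists were chosen with earlier results of these data known. Values in every library of the compared groups are given for members called in untreated SCNT embryos or in a treatment against its control and for the member of highest mean TPM over all libraries in each role, the others by ranges and counts, and up to 6 genes of the other lists by adjusted p. *Mastl*, *Cnot6l* and *Cnot7* were added after their values were seen. The alternatives were RLE size factors, DESeq2 1.42.0, no filter or 10 reads in 2 libraries, sex chromosomes, the compared libraries alone, a replicate block, no minimum fold, both untreated groups as reference and each library left out. Plain library sizes and a fit without the RK-701 libraries were added after seeing the data.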

Additional observations from a re-analysis of the deposited data

Results flagged for a closer look

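In 5 members 1 IVF library stood apart from the other 3 by a gap wider than Dixon's limit for 4 values. *Oosp1* was 634.7 CPM in the first IVF library against 783.9 to 813.3 in the others, and *Wee2* was 639.7 CPM in that library against 798 to 821.1. *Gpr3* was 45.94 CPM in the third IVF library against 55.27 to 56.34, and *Dcp1a* was 50.94 CPM there against 59.34 to 60.42. *Ybx2* was 37.7 CPM in the second IVF library against 26.18 to 27.88. Chance alone flags about 1 in 20 groups, and 40 members were looked at. The IVF group is the only one with 4 libraries, and groups of 2 or 3 were not examined this way.

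The effect of RK-701 differed with and without TSA in 5 members by the interaction term, at log2 values of -2.13 for *Oosp1*, -1.68 for *Wee2*, -1.85 for *Btg4*, -1.18 for *Cnot6l* and -1.09 for *Omt2a*. This term shares its libraries with the comparison of RK-701 against its control. The effect of A366 differed with and without TSA for *Mastl*, at 1.76.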

How the results depend on the processing

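Of 32 called differences of single members, 14 kept direction and threshold under every alternative, and of all their recomputed values 456 kept the call, 63 lost it and 0 changed direction. The 456 include 32 values with no minimum fold, a looser rule on the same fit that cannot lose a call. All 32 were kept with DESeq2, RLE size factors, either other filter and sex chromosomes included, 25 with the compared libraries fitted alone and 22 with plain library sizes, and the fit without the RK-701 libraries kept 25 of 26.

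The counts of called members moved as follows. No share of all genes is given beside the counts in this paragraph or the paragraphs after it, so they stand without a baseline. With no minimum fold they were 23 in untreated SCNT, 22 in SCNT-*Kdm3a*, 12 in RK-701 and 20 in TSA+RK-701 embryos against IVF, 3 for *Kdm3a* and 5 for TSA+UNC0638 against their controls and 16 over the inhibitor pairs. With plain library sizes they were 8 in untreated SCNT and 8 in latrunculin A controls against IVF, and 3 for *Kdm3a*, 4 for TSA+A366 and 1 for TSA+RK-701 against their controls. With no filter they were 3 for *Kdm3a*, 4 for TSA+A366 and 1 between the untreated controls, and RLE factors gave 2 for *Kdm3a*. With the compared libraries fitted alone they were 3 for *Kdm3a*, 1 for TSA+A366, 1 for TSA+RK-701, 0 for TSA+UNC0638, 1 between the untreated controls and 3 for the interactions. DESeq2 gave 3 for *Kdm3a*, 4 for TSA+A366, 1 for *Kdm4d* against *Kdm3a* and 10 for the interactions. With both untreated controls as reference *Kdm3a* had 2 and *Kdm4d* 7. The log2 ratio of the members' share of reads, untreated SCNT against IVF, was -0.999, and -0.71 without *Omt2a*. The cause of these moves was not tested.

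Leaving out 1 library at a time gave 11 to 19 calls in untreated SCNT, 10 to 13 in control SCNT, 10 to 19 in latrunculin A control, 9 to 15 in SCNT-*Kdm3a*, 4 to 8 in SCNT-*Kdm4d*, 15 to 17 in TSA, 13 to 16 in A366, 2 to 5 in RK-701, 8 to 14 in TSA+A366, 10 to 14 in TSA+RK-701 and 7 to 13 in TSA+UNC0638 embryos against IVF. Against their controls it gave 0 to 4 for *Kdm3a*, 2 to 6 for *Kdm4d*, 0 to 1 for TSA, 0 to 2 for A366, 3 to 11 for RK-701, 1 to 6 for TSA+A366, 0 to 6 for TSA+RK-701 and 0 to 7 for TSA+UNC0638. It gave 0 to 3 between the untreated controls, 0 to 1 for *Kdm4d* against *Kdm3a*, 8 to 9 over the inhibitor pairs and 3 to 14 over the interactions, and the log2 ratio of shares ran from -1.10 to -0.90. Where this left a group with 1 library, that library was assumed to vary like the other groups.

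Replicate numbers did not pair the libraries, since the deviations of 111 pairs with the same number correlated at -0.253 to 0.123 and 8 of 25 libraries correlated best with their own number. With the replicate block 11 members were called in untreated SCNT against IVF, 5 for RK-701, 2 for TSA+UNC0638 and 4 for the interactions, and 28 of the 32 single differences were kept. Depth limits *Figla* and *Sohlh1*. Groups of 2 libraries limit every treatment, and RK-701, with 3 libraries, through its control of 2.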
